A study of Oryza sativa with 4 samples.

Results

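The first 2.5 Mb of rice chromosomes 11 and 12 are copies of each other, and their accessible chromatin regions (ACRs) were compared in nuclei of root tips with and without heat. Merging all peaks that overlapped by 1 bp or more, across the 4 libraries, gave 66332 regions. Members were the 1070 merged regions with a midpoint below 2.5 Mb, 529 on chromosome 11 and 541 on chromosome 12, chosen by position alone. The 508 and 521 regions between 2.5 and 5 Mb of the same chromosomes served for comparison. All libraries are single-cell ATAC sequencing (scATAC-seq) of nuclei from 5 mm root tips of 3-day-old seedlings of the japonica cultivar Nipponbare. Seedlings of all 4 libraries were grown at 28 °C, and the labels call 2 libraries Normal. The labels call the other 2 libraries HS, and the methods of the study give heat stress of 3 h at 45 °C. The assay opens with Tn5, a transposase that inserts where chromatin is accessible, and barcodes each nucleus, so a count is a number of cut sites.

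Segmental duplications leave long stretches of genes in the same order on different chromosomes. The starts of chromosomes 11 and 12 are known as the youngest large duplication of the rice genome, and gene conversion between them has kept many gene pairs alike. Both copies carry genes with roles in roots. SCR1 and SCR2 encode SCARECROW factors, which in Arabidopsis pattern the endodermis and the stem cell niche of the root. RR9 and RR10 are type A response regulators of cytokinin signalling, PHOT1B and PHOT1A are phototropin blue light receptors, and CIPK15 and CIPK14 are kinases that act with calcium sensors.

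In the RefSeq gene table of assembly ASM3414082v1, a set list of 13 gene pairs was looked up by name, and all 13 lay in the same order on both chromosomes. The list was not drawn from all names, so the count does not measure how much order is shared. Counted from the start of the chromosome, SCR1 was gene 165 of chromosome 11 and SCR2 was gene 167 of chromosome 12. RR9 was gene 306 and RR10 gene 310. Of the first 9 tRNA genes of each chromosome, 8 followed the same order, and no other chromosomes were compared. This table could not be joined to the coordinates of the peaks, so these genes have no values here, and no sequence is printed. Coordinates below are 1-based and in the genome build of the deposited peaks, itself not given in the sources used here.

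The libraries held between 10719 and 12708 nuclei and between 328595993 and 341590315 cut sites in these nuclei. Signal is given in CPM, cut sites scaled to a library total of 1000000 in nuclei, and cut sites per kb are CPM per kb. Median cut sites per nucleus were 23709 and 23839.5 in Normal and 27765 and 28143 in HS, so the HS nuclei were deeper. Between 163 and 254 nucleus barcodes were shared by pairs of libraries. A matrix holds no counts outside the peaks of its own library, so a change in cut sites can go with a change in the length called, which is given beside the changes described for single members. Reads from nearly identical stretches of the copies cannot be assigned with certainty, the sources do not say how they were handled, and their part in the values below was not tested.

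With the border at 2.5 Mb, the copy on chromosome 11 was the more accessible of the pair by a small margin in every library. With the border at 2.0 Mb the order was the reverse in covered length (-0.553 percentage points), peaks per Mb (-4) and cut sites per kb of peak (-0.0556, chromosome 11 minus chromosome 12), so the values below hold for 2.5 Mb. Peaks covered 42.6, 42.6, 42.0 and 42.1% of it in Normal replicates 1 and 2 and HS replicates 1 and 2, against 40.7, 40.8, 38.6 and 38.9% of the copy on chromosome 12. All 4 values of chromosome 11 lay above all 4 of chromosome 12. The mean was 42.3% ± 0.336 (SD, n = 4) against 39.7% ± 1.15, a difference of 2.60 percentage points (SD 0.817) that had the same sign in 4 of 4 libraries (exact permutation test over paired libraries, two-sided p = 0.13). That is the smallest p that 4 paired libraries can give, so this design cannot pass 0.05. The labels do not say whether replicates came from separate plants, so p-values measure only the spread between these libraries.

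The copies differed more in the length of their peaks than in peak number or in cuts within peaks. Median called length was 1324 bp ± 11.2 (SD, n = 4) on chromosome 11 and 1162 bp ± 17.4 on chromosome 12 (exact permutation p = 0.13, longer in 4 of 4 libraries). Peaks per Mb were 216.8 ± 0.864 and 214.2 ± 1.55, higher on chromosome 11 in 4 of 4 libraries (exact permutation p = 0.13). Merging turned this order around, with 211.6 regions per Mb on chromosome 11 and 216.4 on chromosome 12. Of the members, 472 (89.2%) on chromosome 11 and 462 (85.4%) on chromosome 12 were called in all 4 libraries, against 83.7% of all regions. Both Normal libraries and neither HS library called 11 members on chromosome 11 (2.08%) and 28 on chromosome 12 (5.18%), against 4.36% of all regions. The reverse held for 8 (1.51%) and 13 (2.40%), against 2.39%.

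Within peaks, the copies held nearly the same signal. Cut sites per kb of peak were 7.23 ± 0.0813 on chromosome 11 and 7.19 ± 0.0478 on chromosome 12 (SD, n = 4), and chromosome 11 was higher in only 2 of 4 libraries (exact permutation p = 0.50). Per kb of chromosome the means were 3.06 and 2.86, a ratio of 1.07. The median member called in all libraries had at least 1 cut site in 11.05% of nuclei on chromosome 11 and in 9.92% on chromosome 12. With each nucleus thinned to 2500 fragments, a number that every nucleus reached, the medians were 2.09% and 1.88%, higher on chromosome 11 in 4 of 4 libraries (exact permutation p = 0.13). Thinning evens out depth and not region length, which was greater on chromosome 11. The part of length in this share was not tested.

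**Figure D1:**
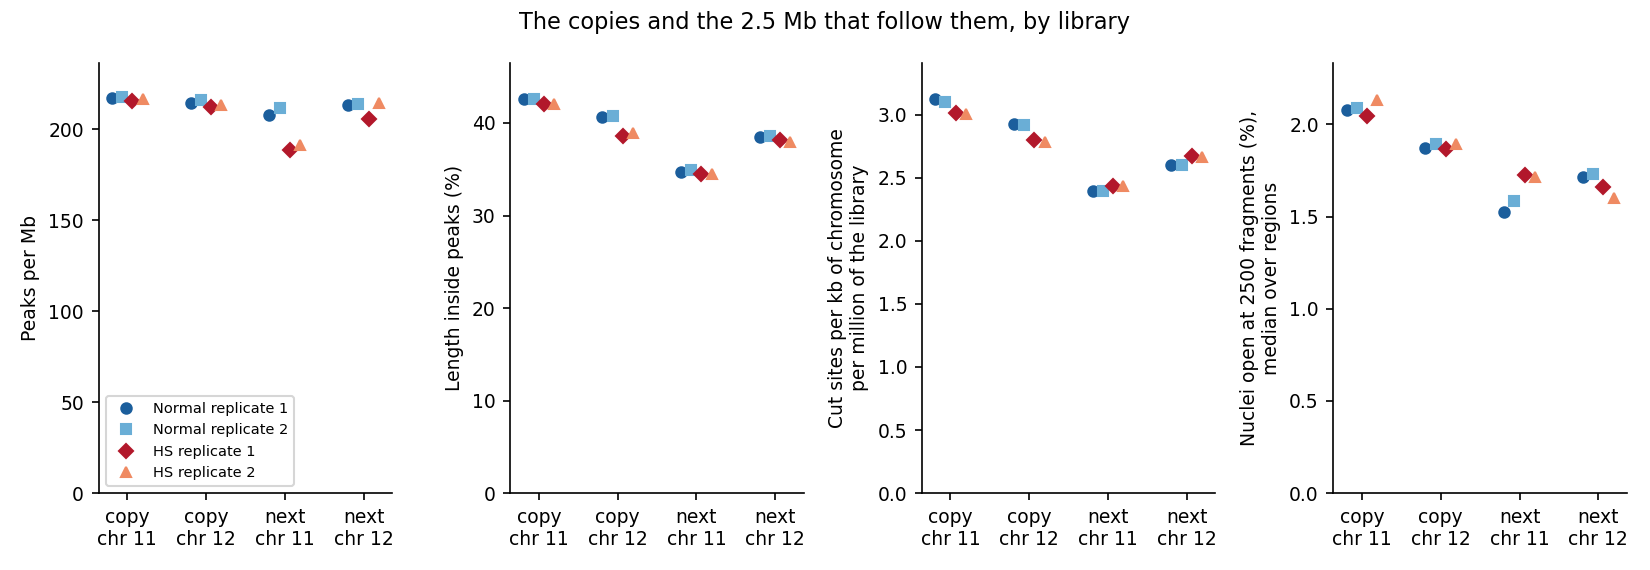
Peaks per Mb, the share of length inside peaks, cut sites (CPM) per kb of chromosome and the median share of nuclei open after thinning, for both copies and the 2.5 Mb that follow each, with 1 point per library. Both copies sit above the segment that follows in cut sites per kb of chromosome, with means of 3.06 against 2.41 on chromosome 11 and 2.86 against 2.63 on chromosome 12.

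Both copies exceeded the 2.5 Mb that follow them, in an order that turned when the border was moved. Cut sites per kb of chromosome were 3.06 ± 0.0578 on the copy of chromosome 11 and 2.41 ± 0.0230 on the next 2.5 Mb, a ratio of 1.27, and 2.86 ± 0.0756 against 2.63 ± 0.0386 on chromosome 12, a ratio of 1.09 (SD, n = 4, exact permutation p = 0.13 for each, higher in 4 of 4 libraries). Covered length followed, at 42.3% against 34.7% and 39.7% against 38.3%. Median called length did so only on chromosome 11, at 1324 bp against 1031, while on chromosome 12 it was 1162 bp against 1235, shorter in 4 of 4 libraries. With the border set at 2.0 Mb and the next 2.0 Mb taken for comparison, which puts the stretch from 2.0 to 2.5 Mb on the other side, the differences in cut sites and in covered length turned. The copies then held 0.406 (chromosome 11) and 0.426 (chromosome 12) fewer cut sites per kb of chromosome than what followed. The order of the copies also turned, with chromosome 11 lower by 0.0595.

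Bins of 250 kb show where the signal lay. On chromosome 11 the Normal mean stood between 1.96 and 3.28 cut sites per kb of chromosome in the first 8 bins, and at 4.63 and 4.60 in the 2 bins from 2.0 to 2.5 Mb. On chromosome 12 it was lowest from 2.0 to 2.25 Mb, at 1.82, and highest from 2.25 to 2.5 Mb, at 5.08. The last bin was therefore dense on both copies, while the bin before it was rich on chromosome 11 and poor on chromosome 12. Bins were matched by position and not by sequence. The gene pairs used as anchors below start 60618 to 174917 bp later on chromosome 12, and none lies beyond 2.0 Mb. Of the regions next to the border, chr11:2494915-2498837 inside held 13.8 cut sites per kb of peak and chr11:2499596-2500515 outside held 15.2, and on chromosome 12 chr12:2490231-2498827 inside held 9.26 and chr12:2499514-2501256 outside held 12.9.

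**Figure D2:**
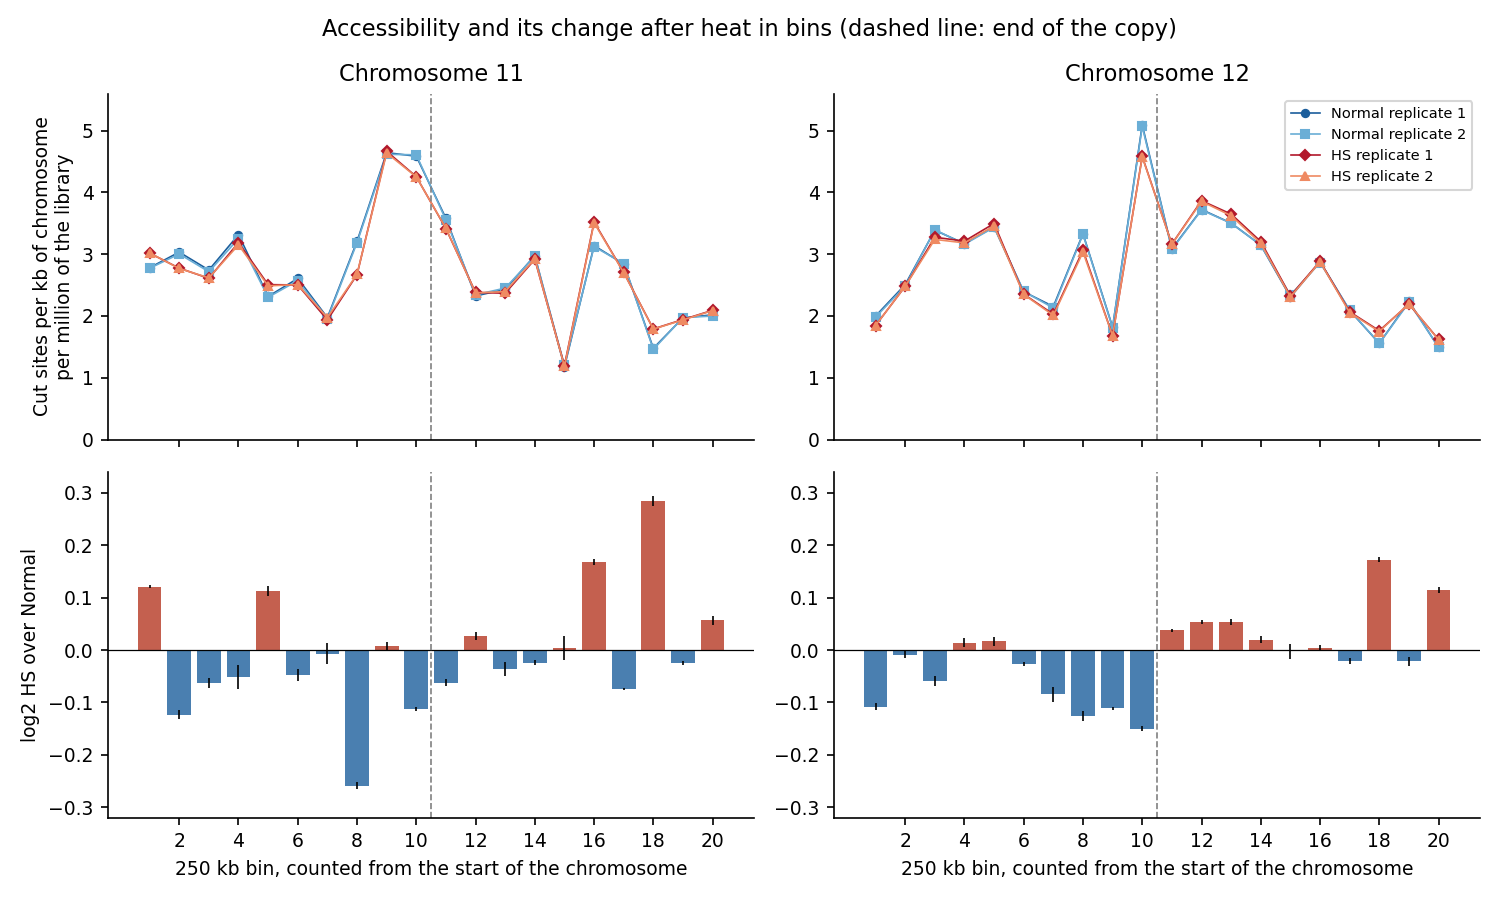
Cut sites (CPM) per kb of chromosome in 20 bins of 250 kb from the start of each chromosome (top, 1 line per library) and the log2 ratio of the HS mean to the Normal mean (bottom, bars, with lines from the lowest to the highest ratio between single libraries). Bin 10 is dense on both chromosomes (Normal means of 4.60 and 5.08), and bin 8 of chromosome 11 has the lowest ratio of the copies, at -0.26.

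Set beside the first 2.5 Mb of all 12 chromosomes, the copies stood out in number of regions and not in signal. They ranked 3 (chromosome 11) and 2 (chromosome 12) in regions per Mb, after chromosome 7 with 219.6. In cut sites per kb of chromosome they ranked 6 and 8, against 5.00 per kb on chromosome 3, the highest, and 1.2 on chromosome 9, the lowest. In the share of regions called in all libraries they ranked 1 and 6.

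The members spread widely around these averages. Cut sites per kb of called length had a median of 4.80 on chromosome 11 (quartiles 2.81 and 8.01) and of 4.39 on chromosome 12 (quartiles 2.52 and 7.69). On average over the libraries 20 members on chromosome 11 and 25 on chromosome 12 were open in at least 50% of nuclei, and 52 and 77 members were open in under 1%. Merged length had a median of 1441 bp and 1205 bp, with 10 and 7 members of at least 10 kb and 57 and 74 under 400 bp.

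The members with the most cut sites per kb were mostly short, and dense regions were not always those open in the most nuclei. On chromosome 11, chr11:218627-219620 held 26.4 and 26.3 cut sites per kb in Normal and 25.2 and 24.7 in HS, the highest of any member, and was open in 26.3 to 29.6% of nuclei. It was followed by chr11:101858-103063 at 18.7, 19.4, 22.2 and 21.1 in the same order of libraries. The third was chr11:2124749-2136450, a long region, which kept 17.5 to 17.9 cut sites per kb over a merged length of 11702 bp and was open in 81.8 to 83.6% of nuclei.

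On chromosome 12 the densest member was chr12:1961858-1963248, at 23.8, 23.3, 23.7 and 23.9 cut sites per kb. Next came chr12:2458337-2461319, with 17.0 and 16.7 in Normal and 19.2 and 19.2 in HS, which lies at LOC_Os12g05350, a gene on the root hair list of the study. The third was chr12:466073-467092 at 17.5 to 18.4.

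The longest members of chromosome 11 were chr11:2184529-2205015 (20487 bp), chr11:2273113-2289511 (16399 bp) and chr11:877499-892552 (15054 bp). On chromosome 12 they were chr12:34537-49534 (14998 bp), chr12:2262531-2275662 (13132 bp) and chr12:2246404-2259515 (13112 bp). The member chr11:2184529-2205015 was open in 82.5, 82.7, 88.4 and 88.6% of nuclei, the largest mean share of any member. Of the 6, 4 lay between 2.0 and 2.5 Mb, in bins with the most cut sites.

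The 3 longest stretches without any region were each longer on chromosome 12 than their equals in rank on chromosome 11. The longest on chromosome 12 were chr12:2097176-2137832 (40657 bp), chr12:221846-253279 (31434 bp) and chr12:1158932-1180415 (21484 bp). On chromosome 11 they were chr11:892553-925002 (32450 bp), which begins where the long member chr11:877499-892552 ends, chr11:2218650-2239230 (20581 bp) and chr11:409612-427663 (18052 bp). Stretches of at least 10 kb numbered 16 on chromosome 11 and 17 on chromosome 12.

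To set members of the copies side by side, gene models from the marker gene table of the study served as anchors. The table named 23 genes on the copy of chromosome 11 and 15 on that of chromosome 12. Pairs on the same strand, with a length within 10% and a shift within 0.2 Mb, numbered 6. Order was then a criterion of choice, and no sequences were compared, so the pairs are assumed and not shown to be copies. The longest chain in the same order held 4 pairs. They were LOC_Os11g01550 with LOC_Os12g01550, LOC_Os11g02300 with LOC_Os12g02250, LOC_Os11g03880 with LOC_Os12g03690, and LOC_Os11g04350 with LOC_Os12g04140. All 8 genes stand on the root hair list of the study, LOC_Os12g03690 on its root cap list as well, and these lists were drawn from the same libraries, so their signal in root hair nuclei is not independent evidence. The files name no function for them.

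Around the anchors, several regions had partners of close length on the other copy, while signal and heat change matched in some pairs and not in others. The region over LOC_Os11g01550, chr11:228997-236261, held 51.6 and 49.6 CPM in Normal and 58.5 and 58.1 in HS. The region over LOC_Os12g01550, chr12:375619-381634, held 46.3 and 46.4 in Normal and 51.7 and 52.1 in HS. In both, the HS libraries lay above the Normal libraries, with a log2 fold change of 0.21 (SE 0.02, edgeR adjusted p = 0.00115) on chromosome 11 and of 0.17 (SE 0.02, adjusted p = 0.000514) on chromosome 12, while called length went from 6486 and 6491 bp to 7256 and 7195 bp in the first and from 5885 and 5837 bp to 6004 and 5995 bp in the second.

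The 3 regions upstream of this gene were close in length on both copies, at 994, 623 and 3743 bp on chromosome 11 and 989, 725 and 3758 bp on chromosome 12. The first of them, chr11:218627-219620, is the densest member of chromosome 11, with a mean of 25.6 cut sites per kb against 17.2 in its partner chr12:366572-367560. The partners chr11:223964-227706 and chr12:370420-374177 both rose after heat, with log2 fold changes of 0.45 (SE 0.02, edgeR adjusted p = 9.84e-05) and 0.27 (SE 0.04, adjusted p = 0.00399). Called length rose with them, from 2356 and 2483 bp to 3183 and 3731 bp and from 3253 and 3206 bp to 3758 and 3385 bp, and cut sites per kb changed by log2 -0.07 and 0.12.

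At the upstream ends of LOC_Os11g03880 and LOC_Os12g03690 lay regions of 4571 bp (chr11:1468573-1473143) and 4586 bp (chr12:1543146-1547731). They held 7.95 ± 0.345 and 8.25 ± 0.103 cut sites per kb (SD, n = 4) and were open in 34.6% and 36.7% of nuclei. Their heat changes were log2 0.17 (SE 0.02, edgeR adjusted p = 0.00134) and 0.03 (SE 0.02, adjusted p = 0.161). Called length was 4397 and 3887 bp in Normal and 4462 and 4556 bp in HS on chromosome 11, and 4428, 4419, 4578 and 4578 bp on chromosome 12.

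Near LOC_Os11g04350 and LOC_Os12g04140, chr11:1721018-1721949 and chr12:1781061-1781997 were 932 and 937 bp long, with 9.94 and 10.3 cut sites per kb. At the upstream ends of the genes the copies differed in outline. Chromosome 11 had 1 region there, chr11:1726694-1728897, of 2204 bp with 11.2 cut sites per kb. Chromosome 12 had 2, chr12:1786630-1787823 and chr12:1788494-1789453, of 1194 and 960 bp with means of 8.005 and 9.48.

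At the gene pair LOC_Os11g02300 and LOC_Os12g02250, 3 regions lay on each copy. The one at the downstream end was longer on chromosome 11, chr11:566033-575164 with 9132 bp, than on chromosome 12, chr12:744722-749866 with 5145 bp. The regions over the upstream ends were close, 3598 bp with 4.51 cut sites per kb (chr11:578930-582527) and 3330 bp with 5.00 (chr12:753953-757282). Summed over the 3 regions, the gene on chromosome 11 held 110.1 and 108.1 CPM in Normal and 99.6 and 99.5 in HS, and that on chromosome 12 held 64.2, 63.1, 55.4 and 53.4. Cut sites per kb went from 7.95 and 7.85 to 7.52 and 7.48 on chromosome 11 and from 6.04 and 6.06 to 6.33 and 6.13 on chromosome 12. In 2 of the 3 regions on chromosome 12 called length was shorter in HS, from 5139 and 5126 bp to 3968 and 3941 bp (chr12:744722-749866) and from 2155 and 2113 bp to 1637 and 1635 bp (chr12:751090-753281).

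Within 15 kb of the anchors, a limit set with the data in view, 24 of 29 regions of chromosome 11 called in all libraries had a partner within 2 kb of the interpolated place on chromosome 12. The median partner differed by 0.39 in log2 cut sites per kb and by 0.79 in log2 length. With the place moved by 20 kb toward either side, 21 and 18 partners were found, and the median differences were 0.77 and 0.99 in cut sites and 1.54 and 0.96 in length. The closest partners in cut sites per kb were chr11:1715242-1715946 with chr12:1775898-1776582 (log2 ratio -0.02, with single libraries between -1.04 and 1.16), chr11:1721018-1721949 with chr12:1781061-1781997 (0.05) and chr11:1468573-1473143 with chr12:1543146-1547731 (0.05).

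Of the 5 most unequal partners, 4 were also unlike in length, the exception being 1741 bp on chromosome 11 (chr11:1736019-1737759) and 1546 bp on chromosome 12. The 5 had log2 ratios of chromosome 12 to chromosome 11 of -2.28 (chr11:1455986-1459035 and chr12:1534942-1535377), -2.18 (chr11:1736019-1737759 and chr12:1795899-1797444), -1.92 (chr11:566033-575164 and chr12:742630-743834), 1.83 (chr11:563470-565462 and chr12:736537-737526) and 1.36 (chr11:1717443-1717809 and chr12:1778962-1779595). In the last, single libraries ran from 0.82 to 3.00. In the third, position gave as partner a neighbour of chr12:744722-749866, the region at the downstream end of the partner gene, which held 8.27 cut sites per kb against 9.56 in chr11:566033-575164. Over the whole stretch between the outermost anchors, 180 of 279 regions had a partner, with a median difference of 0.77, and with the place moved by 20 kb it was 172 and 170 with 0.86 and 0.79. Away from the anchors, position thus gave partners about as unlike as a shifted map did.

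**Figure D3:**
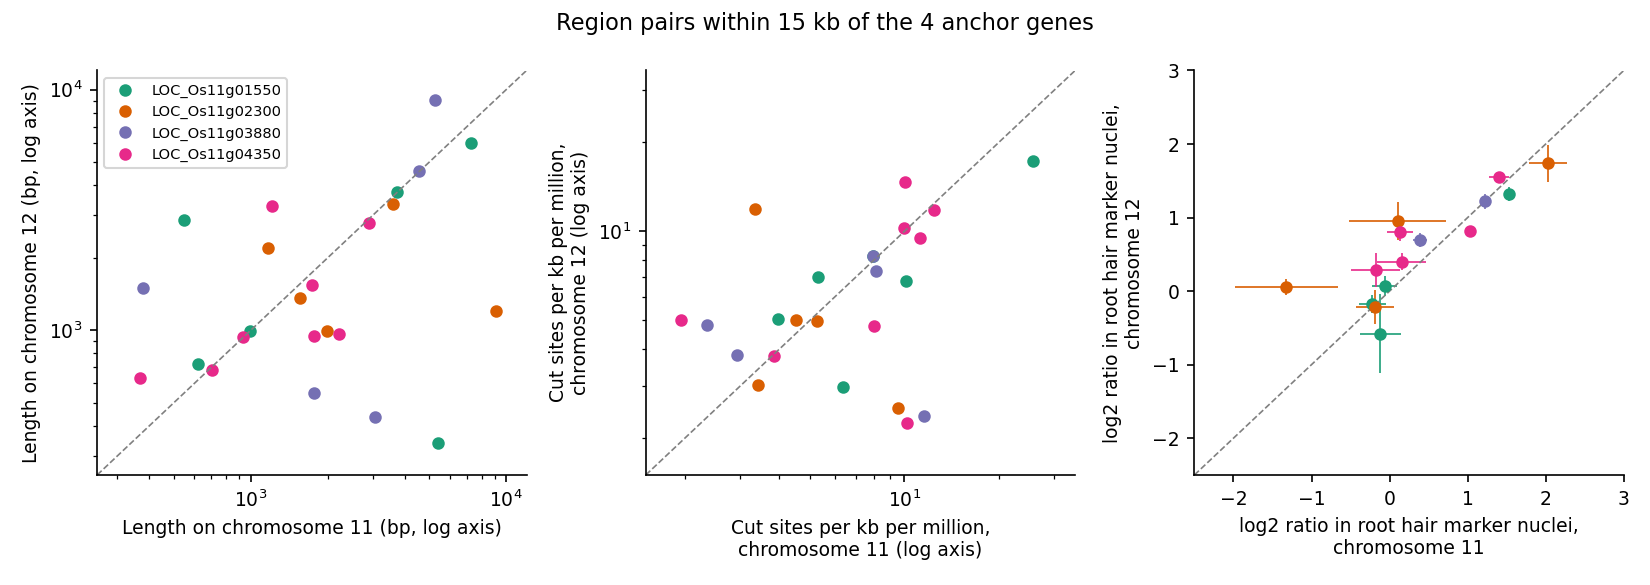
Region pairs within 15 kb of the anchor genes, coloured by the gene on chromosome 11: merged length (24 pairs, log axes), cut sites (CPM) per kb (24 pairs, log axes) and the log2 ratio in root hair marker nuclei over other nuclei (15 pairs with enough cut sites, bars are the SD of 4 libraries). Points near the dashed line of equality include the regions of 4571 and 4586 bp at LOC_Os11g03880 and LOC_Os12g03690.

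Members were next compared between nuclei with high and low signal at marker genes. Root hairs are outgrowths of epidermal cells that take up water and nutrients, and the root cap covers and protects the tip. Nuclei were scored by their cut sites at 8 root hair and 7 root cap marker genes, none of them on chromosome 11 or 12, and the top 5% of each library (536 to 635 nuclei) were set against the rest. All but 2 of these markers come from the study's own lists, drawn from the same data. This is a range of a score and not a cell type, and between 544 and 861 nuclei per library lay within 20% of the limit. Median depth was lower in the chosen root hair nuclei (20486.5 to 23227.5 cut sites) than in the rest (23898 to 28434). Chosen root cap nuclei were shallower too, at 22598 and 21870.5 in Normal and 22056 and 23401 in HS. The rest had 23793 and 23946.5 in Normal and 28101 and 28487 in HS. Nuclei chosen this way are not replicates, so no test is given.

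Few members differed at least 2-fold in all 4 libraries. In root hair marker nuclei 9 of 351 members of chromosome 11 and 9 of 323 of chromosome 12 with at least 1000 cut sites per library were higher (2.56% and 2.79%), against 2.98% of all regions, and 14 and 12 were lower (3.99% and 3.72%), against 4.92%. In root cap marker nuclei 3 and 5 were higher (0.855% and 1.55%), against 2.04%, and 4 and 6 were lower (1.14% and 1.86%), against 4.13%. With the top 5% of nuclei, the shares of the copies lay below those over all regions in each case, by most for lower members in root cap marker nuclei. This did not hold throughout with the top 2%. In root hair marker nuclei 2.56% and 2.48% were then higher, against 2.47% of all regions, and 3.70% and 4.33% lower, against 4.71%. In root cap marker nuclei 0.855% and 1.86% were higher, against 1.75%, and 9 and 9 members (2.56% and 2.79%) lower, against 4.49%. These differences were not tested.

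Of the 6 members that led the root hair ratio, 5 lie at genes of the study's root hair list. That list and most of the markers that chose the nuclei were drawn from the same libraries, so this overlap is not independent evidence. The share of all members at such genes is not given here. On chromosome 11 it was 2.18, 2.06, 2.11 and 1.86 (log2, Normal replicates 1 and 2, HS replicates 1 and 2) at chr11:2240452-2242776, at LOC_Os11g05230 and LOC_Os11g05240. It was 2.16, 2.32, 1.86 and 1.79 at chr11:578930-582527 over the upstream end of LOC_Os11g02300, and 1.80, 1.86, 1.78 and 1.67 at chr11:774020-781951 at LOC_Os11g02670. All 3 were high in every library.

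On chromosome 12 the leading regions were chr12:1786630-1787823 upstream of LOC_Os12g04140 (1.71, 1.83, 2.04 and 1.90), chr12:753953-757282 over the upstream end of LOC_Os12g02250 (1.95, 1.95, 1.57 and 1.47) and chr12:309576-310394 (1.43, 1.64, 1.87 and 1.93). The regions at LOC_Os11g02300 and LOC_Os12g02250 are thus among the leading 3 on both copies.

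Each anchor pair had a region above 1 in the root hair ratio on both copies. The regions over LOC_Os11g01550 and LOC_Os12g01550 had mean log2 ratios of 1.53 ± 0.0613 and 1.32 ± 0.0931 (SD, n = 4), and those at LOC_Os11g03880 and LOC_Os12g03690 1.23 ± 0.0194 and 1.22 ± 0.0986. Of 15 pairs near the anchors with enough cut sites, 12 had the same sign in root hair marker nuclei and 14 in root cap marker nuclei, with median differences of 0.25 and 0.27. No shifted map was scored for this, so these counts have no baseline, and all pairs lie near genes of the root hair list. Both members of a pair were measured in the same nuclei.

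In root cap marker nuclei the leading members of chromosome 11 were chr11:1428186-1430118, chr11:786759-787589 and chr11:2410938-2415679. The first had log2 ratios of 1.54 and 1.58 in Normal and 2.64 and 2.63 in HS. The second had 1.84, 1.76, 2.11 and 2.14, and the third, at LOC_Os11g05530 of the study's root cap list, 1.42, 1.37, 1.58 and 1.51. The root cap marker regions themselves had log2 ratios of 1.84 and 1.85 in Normal and 2.11 and 2.11 in HS, so the chosen HS nuclei were the more enriched, and the part of this in the members' ratios was not tested. On chromosome 12 they were chr12:1802641-1803585 (1.2, 1.62, 1.73 and 1.81), chr12:1006584-1008596 at LOC_Os12g02720 of the root cap list (1.47, 1.30, 1.72 and 1.60) and chr12:315066-316134 (1.47, 1.34, 1.56 and 1.63).

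**Figure D4:**
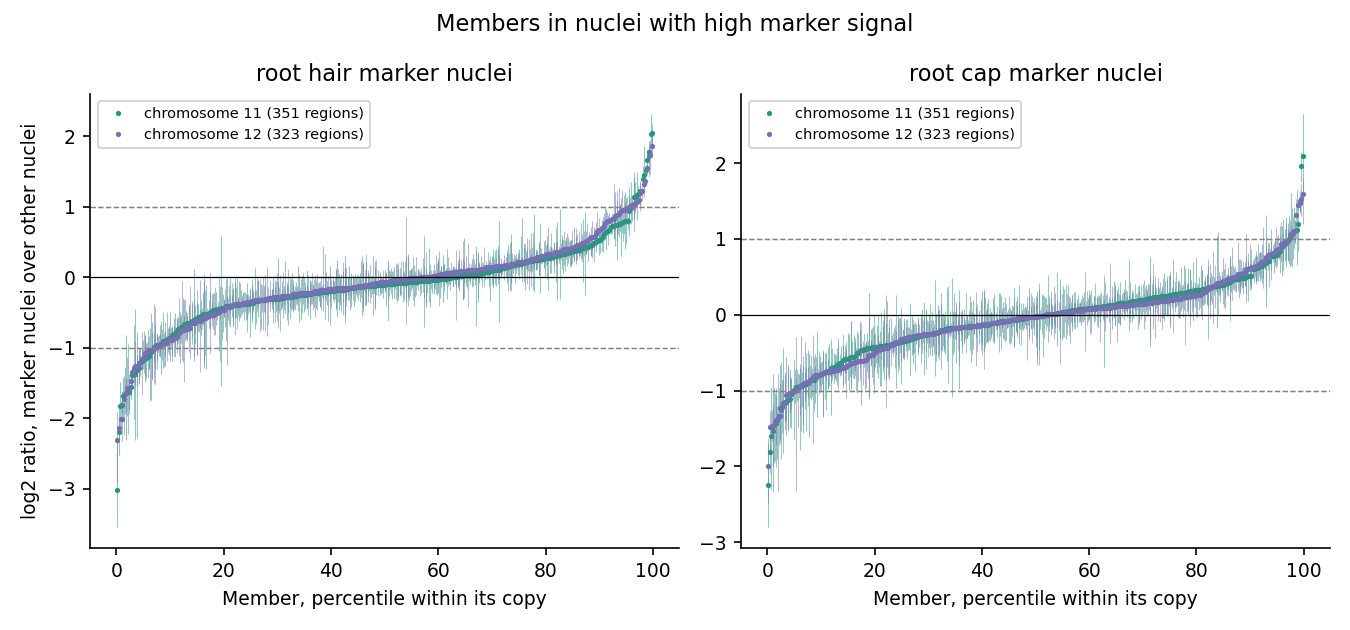
Log2 ratio of cut sites in root hair (left) and root cap (right) marker nuclei over other nuclei, members ordered within each copy by the mean of 4 libraries (points), with lines from the lowest to the highest library. Of the 351 members of chromosome 11 and 323 of chromosome 12, 9 on each lie above 1 in all libraries for root hair.

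After heat both copies held a smaller share of the cut sites of their library. The share of the copy on chromosome 11 was 0.780 and 0.774% in Normal and 0.753 and 0.752% in HS, and that of the copy on chromosome 12 was 0.732 and 0.730% in Normal and 0.700 and 0.696% in HS. The groups did not overlap on either copy. Counts exist only inside called peaks, and covered length fell with the share, by 1.36% on chromosome 11 and by 4.87% on chromosome 12. Cut sites per kb of peak changed by -1.84% and 0.44%, so on chromosome 12 the mean density inside called peaks did not fall. Over members of stable called length the share on chromosome 12 still fell, by 1.82%. The part of called length in the fall was not tested. The change of the share was -3.18% on chromosome 11 and -4.46% on chromosome 12 (exact permutation test, two-sided p = 0.333 for each, the smallest that 2 against 2 libraries can give). In sums over nuclei, a smaller number of nuclei of a type and fewer cuts per nucleus cannot be told apart.

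The same share rose in the 2.5 Mb that follow, from 0.598 and 0.598% to 0.608 and 0.608% on chromosome 11 (1.66%) and from 0.650 and 0.650% to 0.668 and 0.665% on chromosome 12 (2.55%, exact permutation p = 0.333 for each). Among the first 2.5 Mb of the 12 chromosomes, the falls on chromosomes 11 and 12 were the 2 deepest, the next being -2.60% on chromosome 3, and the rise on chromosome 4 was the largest, at 7.07%. The difference between the copies and what follows was not tested. Over the members with a called length stable to within 10% across libraries, a choice made with the data in view, the share fell by 2.69% on chromosome 11 and by 1.82% on chromosome 12. The median share of nuclei open after thinning overlapped between the groups, at 2.08, 2.09, 2.05 and 2.13% on chromosome 11 and 1.87, 1.90, 1.87 and 1.89% on chromosome 12.

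By bin, both HS libraries lay below both Normal libraries in 6 of 10 bins of the copy on chromosome 11 and 8 of 10 on chromosome 12, and above them in 2 and 2. Over all 250 kb bins of the genome 39.8% lay below and 53.5% above. Below was also the state of 5 and 2 of the next 10 bins. The deepest bin was 1.75 to 2.0 Mb of chromosome 11, from 3.21 and 3.19 cut sites per kb in Normal to 2.67 and 2.67 in HS, log2 -0.26. The bin at the same position of chromosome 12 went from 3.33 and 3.32 to 3.06 and 3.03, log2 -0.13. On chromosome 12 all 5 bins from 1.25 to 2.5 Mb were below.

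Few members called in all 4 libraries changed at least 2-fold, and those that did also changed in called length. Members called in fewer libraries were left out of this count, among them those called in only 1 group. The counts with them are larger and are given below. Of the 1070 members, the 934 called in all 4 libraries were tested (472 on chromosome 11 and 462 on chromosome 12) in a fit over 55496 regions, with limits of an edgeR adjusted p of at most 0.01 and 2-fold. On chromosome 11, 1 rose and 9 fell, and on chromosome 12, 5 rose and 12 fell, against 1.93% of all regions tested that rose and 2.63% that fell. The next 2.5 Mb had 10 and 14 of 421 on chromosome 11 and 6 and 9 of 451 on chromosome 12. In all 27 called members the called length moved in the same direction as the cut sites, as it did in 2529 of the 2531 regions called in the genome. Of the members on chromosome 11, 16 fell without HS replicate 2, the number that rose was 3 without Normal replicate 1, and it was 2 without HS replicate 2. On chromosome 12, 8 rose without Normal replicate 2.

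By the adjusted p alone, 92 members rose (19.5%) and 119 fell (25.2%) on chromosome 11, and 87 rose (18.8%) and 117 fell (25.3%) on chromosome 12, against 24.6% and 22.5% of all regions. The median log2 fold change was -0.03 on chromosome 11 and -0.05 on chromosome 12, against 0.00 over all regions, 0.03 in the next 2.5 Mb of chromosome 11 and -0.01 in that of chromosome 12. Among the 202 and 209 members of stable called length, 32 rose and 50 fell on chromosome 11 and 40 rose and 50 fell on chromosome 12, against 24.2% and 20.9% of such regions, and 0 passed 2-fold, against 0.0929%.

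**Figure D5:**
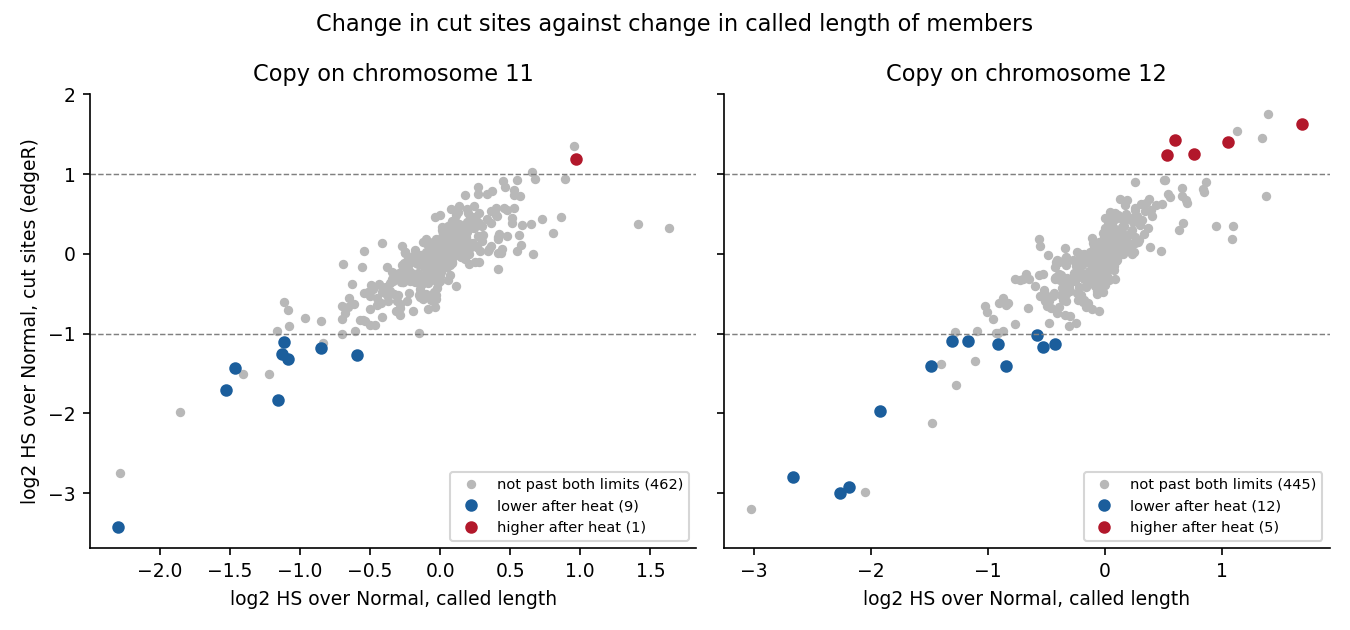
Log2 fold change of cut sites after heat (edgeR, vertical axis) against the log2 change in mean called length (horizontal axis) for the 472 and 462 tested members of each copy. The members past both limits, 9 lower and 1 higher on chromosome 11 and 12 lower and 5 higher on chromosome 12, all lie on the side where called length changed in the same direction.

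Of the 5 largest falls, 3 were short and weak regions with little length called in HS. The largest was chr11:431476-431957, with 1.93 and 2.17 CPM over 458 and 482 bp in Normal and 0.128 and 0.251 over 73 and 118 bp in HS (log2 fold change -3.43, SE 0.36, edgeR adjusted p = 0.000779). It was followed by chr12:688323-688707, from 0.828 and 0.890 CPM to 0.0517 and 0.161 as called length went from 382 and 368 bp to 60 and 96 bp (log2 -3.00, SE 0.59, adjusted p = 0.0078). The next was chr12:2397074-2397400, from 0.700 and 0.934 to 0.0639 and 0.149, over 265 and 327 bp and 31 and 99 bp (log2 -2.93, SE 0.52, adjusted p = 0.00534). In these, the HS peaks covered little of the Normal ones.

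The other 2 named falls were wider. The member chr12:31840-33987 went from 5.33 and 5.23 CPM over 2148 and 2125 bp to 0.901 and 0.609 over 423 and 251 bp (log2 -2.80, SE 0.18, edgeR adjusted p = 0.000146), while its cut sites per kb of peak changed by log2 -0.12. The member chr12:2048408-2051502 went from 7.19 and 7.36 over 2969 and 3080 bp to 1.28 and 2.43 over 483 and 1110 bp (log2 -1.97, SE 0.27, adjusted p = 0.002), with cut sites per kb changed by 0.01. In both, cut sites fell with the length called and the signal per kb hardly moved.

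A fall with strong signal, named after its values were seen, was chr11:1987019-1992797. It held 56.7 and 56.3 CPM over 5698 and 5778 bp in Normal and 15.9 and 15.9 over 2530 and 2622 bp in HS (log2 -1.83, SE 0.02, edgeR adjusted p = 1.94e-06). Its cut sites per kb fell too, from 9.96 and 9.75 to 6.29 and 6.05, and nuclei open after thinning from 12.2 and 12.4% to 3.58 and 3.51%. Without it the bin from 1.75 to 2.0 Mb of chromosome 11 stood at log2 -0.19.

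Another of this kind, also named afterwards, was chr12:2035934-2037449, from 21.4 and 19.9 CPM over 1516 and 1282 bp to 9.43 and 9.35 over 1036 and 1049 bp (log2 -1.13, SE 0.04, edgeR adjusted p = 3.87e-05), with cut sites per kb from 14.1 and 15.5 to 9.10 and 8.92. Both lie beyond the last anchor gene, so no partner was assigned to either.

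The 5 largest rises all lay on chromosome 12. The largest was chr12:1382080-1383364, from 0.752 and 0.904 CPM over 345 and 404 bp to 2.63 and 2.46 over 1268 and 1139 bp (log2 1.62, SE 0.14, edgeR adjusted p = 0.000424), with cut sites per kb changed by log2 -0.06. In chr12:1403738-1404640, from 2.08 and 1.70 CPM over 606 and 557 bp to 5.14 and 4.99 over 854 and 903 bp (log2 1.43, SE 0.11), and chr12:1882844-1883592, from 1.63 and 1.75 over 494 and 520 bp to 3.87 and 4.09 over 718 and 749 bp (log2 1.24, SE 0.08), the signal per kb was higher too, by log2 0.83 and 0.70. The others were chr12:1086986-1088206, from 0.869 and 1.26 CPM over 410 and 509 bp to 3.25 and 2.36 over 1221 and 678 bp (log2 1.40, SE 0.24), and chr12:184138-184791, from 0.811 and 0.719 over 386 and 347 bp to 1.72 and 1.93 over 593 and 651 bp (log2 1.26, SE 0.17). All 5 were weak regions in Normal. The only rise on chromosome 11 was chr11:1180658-1182614, from 2.29 and 2.70 CPM over 879 and 1108 bp to 5.63 and 5.75 over 1957 and 1942 bp (log2 1.19, SE 0.09, adjusted p = 0.000226).

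Of the 10 members of at least 10 kb on chromosome 11, 2 rose and 5 fell by edgeR's adjusted p, with log2 fold changes from -0.56 to 0.36, and of the 7 on chromosome 12, 0 rose and 5 fell, from -0.57 to -0.06. None of these 17 reached 2-fold. The shares over all regions of at least 10 kb are not given here, so these counts have no baseline. The longest member of chromosome 11, chr11:2184529-2205015, went from 206.3 and 201.4 CPM to 263.1 and 258.8 (log2 0.36, SE 0.01, edgeR adjusted p = 4.03e-05), with a called length of 19496, 19351, 20424 and 20448 bp and cut sites per kb changed by log2 0.28. The longest of chromosome 12, chr12:34537-49534, went from 123.3 and 121.2 to 82.7 and 82.9 (log2 -0.56, SE 0.02, adjusted p = 2.64e-05) as its called length went from 14998 and 14997 bp to 7902 and 8532 bp. Without these members the shares of the copies changed by -4.02% and -3.98%.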

How the data were processed

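Nuclei of 4 libraries were analysed, 2 Normal and 2 HS, grouped by sample title. The authors ran the Cell Ranger ATAC 1.2.0 count pipeline on each library and deposited peaks and a matrix of raw counts, which are whole numbers of Tn5 cut sites per peak and barcode for all barcodes. The genome build, annotation and peak calling settings, and how multiply mapped reads were treated, were not given in the sources used here. Peak positions and barcode names were deposited as other columns without a unit.

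Nuclei were the top barcodes by cut sites, as many as the study's sequencing table lists, and hold 93.6 to 93.8% of cut sites. Doublets were not removed. Peaks sharing at least 1 bp were merged. The members, gene lists and tests were chosen with earlier results of these data known.

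Heat was tested with edgeR 4.0.16 (TMM, filterByExpr, quasi-likelihood test, Benjamini-Hochberg) in R 4.3.3 on sums over nuclei, for regions called in all 4 libraries. The biological coefficient of variation was 0.0759. The script was tested on simulated data. DESeq2 1.42.0 was the alternative. Segments were compared by exact permutation tests over libraries. Marker ratios added 0.5 to each sum. Cut sites per kb use the length called in the library, and CPM its cut sites in nuclei.

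Named regions were the 5 largest rises and falls past both limits, the 3 densest and 3 longest members and the 3 longest stretches without a region on each copy, the 3 closest and 5 most unequal pairs near anchors, and the 3 members per copy leading each marker ratio. Alternatives covered normalization, test, filter, block, nuclei, called length, merging, the border, the limits and libraries left out. Tables and plots were made in Python 3.11.15 (pandas 2.3.3, numpy 2.4.6, scipy 1.17.1, matplotlib 3.10.9).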

Additional observations from a re-analysis of the deposited data

How the results depend on the processing

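Of the values recomputed with 1 library left out, 99 were labelled the same, 9 moved and 0 reversed. Under the other settings 113 were labelled the same, 23 moved and 13 reversed. Differences between segments and changes of library share were judged by sign alone, so the same label there does not mean the same size. For example, chromosome 11 minus chromosome 12 in cut sites per kb of peak was 0.0334 with all libraries and 0.0041 without Normal replicate 1. All 13 reversals came from ending the copies at 2.0 Mb. Chromosome 11 minus chromosome 12 was then -4 peaks per Mb, -0.553 points of covered length, -0.0556 cut sites per kb of peak and -0.0595 per kb of chromosome. Chromosome 11 minus what follows was -1 peak per Mb, -4.97 points, -59.9 bp of median length, -0.132 per kb of peak and -0.406 per kb of chromosome. Chromosome 12 minus what follows was -4.97 points, -0.170 per kb of peak, -0.426 per kb of chromosome and -0.331 points of nuclei open.

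For heat, the counts of members higher and lower were 1 and 9 on chromosome 11 and 5 and 12 on chromosome 12. They were 0 and 0, and 0 and 0, for stable called length, 9 and 18, and 13 and 33, for regions called in at least 1 library, 16 and 41, and 24 and 38, at an adjusted p of 0.05 and 1.5-fold, and 92 and 119, and 87 and 117, by adjusted p alone, which was added after seeing the data. With a library left out they ranged from 1 to 3 and 9 to 16 on chromosome 11 and from 5 to 8 and 8 to 16 on chromosome 12, where the lone library is assumed to vary like the others. DESeq2 gave 1 and 11, and 7 and 13. The median log2 fold change of chromosome 11 was -0.045 for stable called length and -0.042 to -0.028 with a library left out. That of chromosome 12 was -0.058 over all barcodes, -0.031 for stable called length, -0.071 for regions called in at least 1 library, -0.036 with the end at 2.0 Mb and -0.061 to -0.046 with a library left out. Among the 2% of nuclei with the highest root cap signal, 9 members of chromosome 11 were lower, against 4 among the top 5%. Why these values moved was not tested.

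With the replicate number as a block the counts were 1 and 8, and 5 and 13, and the median of chromosome 12 was -0.048. Deviations of Normal replicate 1 and HS replicate 1 from their group means had a correlation of 0.018 across regions. This value cannot show whether same-numbered libraries shared a round or batch, and the labels give only the number.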

Other observations

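The members lowest in root hair marker nuclei, picked after their values were seen, lay close together on chromosome 12 and in part on chromosome 11. On chromosome 12 the 4 lowest were chr12:1096297-1098860, chr12:1072905-1077604, chr12:1079052-1084857 and chr12:1092300-1093104, with mean log2 ratios of -2.31, -2.14, -2.01 and -2.01 over 4 libraries. On chromosome 11 the lowest was chr11:2319372-2321179 at -3.02, with libraries between -3.55 and -2.30. It was followed by chr11:2103984-2107251 at -2.20, chr11:2090645-2093767 at -1.83 and chr11:2079211-2090016 at -1.81, which are near each other. No gene of the study's table was matched to these places here, and no test was made.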
